A study of Homo sapiens with 34 samples.

Results

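The UGT2B genes encode UDP-glucuronosyltransferases, the enzymes that attach glucuronic acid to androgens and other lipophilic molecules. The 7 members UGT2B4, UGT2B7, UGT2B10, UGT2B11, UGT2B15, UGT2B17 and UGT2B28 were taken by their symbols from a table of 26336 genes and were followed through poly(A) RNA libraries of 4 human prostate cell lines, 34 libraries in 17 groups. RWPE is a non-tumorigenic prostate epithelial line, LNCaP comes from a lymph node metastasis of prostate cancer, and VCaP and MDAPCa2a come from bone metastases. The study grew them on plastic or on a coating of amorphous calcium phosphate (ACP), offered by its title as a model of the bone surface, and asked how surface and testosterone act on expression.

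Each line had a plastic control group of 2 libraries in its usual medium: serum-free keratinocyte medium for RWPE, 10% serum for LNCaP and VCaP, and 20% serum for MDAPCa2a. Plastic stripped groups received serum treated with charcoal and dextran, which removes steroids, and had 2 libraries in LNCaP and MDAPCa2a and 1 in VCaP. On ACP, the control medium was used for RWPE, LNCaP and VCaP, and stripped serum for LNCaP, VCaP and MDAPCa2a, with 2 libraries each. The ACP androgen groups (3 RWPE libraries and 2 of each cancer line) carried 100 mM of an androgen that the titles call DHT and the condition labels call testosterone; for the cancer lines it was added to stripped serum. Groups other than plastic control are labelled day 4, and plastic control is labelled continuous culture, so in comparisons with plastic control the culture history cannot be told apart from surface or serum. MDAPCa2a was seeded on protein-coated plastic but on ACP without that protein. Each line is a single cell line, and the labels do not say that replicate libraries came from separate cultures, so p-values measure the spread between these libraries.

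Glucuronidation uses UDP-glucuronic acid, made from UDP-glucose, and turns steroids into water-soluble conjugates that cells can export. UGT2B15 and UGT2B17 conjugate testosterone, dihydrotestosterone and their reduced metabolites, and in prostate they are known as the main route by which androgens are inactivated; both are known from earlier work to be lowered by androgen in LNCaP. UGT2B28 also accepts steroids, UGT2B7 has a wide range of substrates that includes opioids and steroids, UGT2B4 is known for bile acids, UGT2B10 for nicotine and other amines, and few substrates are known for UGT2B11. UGT2B4, UGT2B7 and UGT2B10 are best known as liver enzymes.

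The 7 genes lie in 1 cluster on chromosome 4 (GENCODE v29 on GRCh38, used here for gene structure; the submitters' processing notes name hg19 for the counts). UGT2B17 spans chr4:68537184-68568527 and UGT2B15 chr4:68646630-68670628, both on the minus strand, followed by UGT2B10 at chr4:68815993-68831196 (plus), UGT2B7 at chr4:69051363-69112987 (plus), UGT2B11 at chr4:69199951-69214731 (minus), UGT2B28 at chr4:69280499-69295050 (plus) and UGT2B4 at chr4:69480165-69526014 (minus). Their coding sequences fall into close pairs. UGT2B15 and UGT2B17 were 96.5% identical over the coding sequence, and UGT2B11 and UGT2B28 97%, while UGT2B17 and UGT2B28 shared 84%. The first 120 coding bases are shown for these 4 genes because reads over such stretches decide which gene a count is given to; capitals mark the bases that differ from UGT2B17, which number 5, 11 and 14 in UGT2B15, UGT2B11 and UGT2B28.
UGT2B17: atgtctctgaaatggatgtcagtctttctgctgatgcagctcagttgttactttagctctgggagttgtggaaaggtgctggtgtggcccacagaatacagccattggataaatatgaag
UGT2B15: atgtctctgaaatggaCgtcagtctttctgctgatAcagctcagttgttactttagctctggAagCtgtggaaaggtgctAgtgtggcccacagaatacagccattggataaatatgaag
UGT2B11: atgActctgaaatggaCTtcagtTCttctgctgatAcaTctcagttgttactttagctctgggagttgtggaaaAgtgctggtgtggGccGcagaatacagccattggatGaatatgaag
UGT2B28: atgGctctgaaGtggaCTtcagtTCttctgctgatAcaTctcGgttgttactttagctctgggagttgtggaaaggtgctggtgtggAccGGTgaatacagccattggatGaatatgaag

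Of all 100-base windows in their main transcripts, 12.7% were identical between UGT2B15 and UGT2B17, and 9.3% of those of UGT2B11, 6.6% of UGT2B10 and 5.71% of UGT2B28 occurred in another gene or pseudogene. None did for UGT2B4 and UGT2B7. Over 50-base windows the shared part was 27.8% for UGT2B15 and UGT2B17 and 40.9% for UGT2B11. How the counting treated reads that match several genes is not given in the sources used here, so the split within these pairs is less certain than their sums, which are given below.

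RefSeq promoter entries (GRCh38.p14) were matched for 4 of the 7 members, UGT2B7, UGT2B10, UGT2B11 and UGT2B15. The 250 bases before the start are shown for the 3 that the androgen results below turn on, UGT2B15 at chr4:68670653-68670902 (minus strand), UGT2B10 at chr4:68815744-68815993 (plus) and UGT2B11 at chr4:69214749-69214998 (minus). Capitals mark matches, on either strand, to TATAAG, a core of the TATA box, or AGAACA, a half-site of the androgen response element; the motifs do not overlap here.
UGT2B15: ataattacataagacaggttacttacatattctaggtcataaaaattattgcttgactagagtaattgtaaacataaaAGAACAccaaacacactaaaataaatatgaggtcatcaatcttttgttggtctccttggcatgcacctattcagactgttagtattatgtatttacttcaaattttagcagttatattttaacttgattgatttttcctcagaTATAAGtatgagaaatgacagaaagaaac
UGT2B10: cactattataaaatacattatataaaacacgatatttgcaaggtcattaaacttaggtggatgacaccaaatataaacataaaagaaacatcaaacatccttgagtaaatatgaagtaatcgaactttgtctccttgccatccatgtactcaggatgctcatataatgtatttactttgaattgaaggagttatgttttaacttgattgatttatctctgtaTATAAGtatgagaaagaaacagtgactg
UGT2B11: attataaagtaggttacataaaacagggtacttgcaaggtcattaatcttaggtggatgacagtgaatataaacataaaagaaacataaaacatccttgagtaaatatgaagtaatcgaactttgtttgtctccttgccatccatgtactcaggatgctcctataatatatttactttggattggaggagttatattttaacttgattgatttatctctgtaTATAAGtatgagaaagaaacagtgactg

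TATAAG lay 29 bases before the start in UGT2B15 and 28 bases before it in UGT2B10 and UGT2B11, and was held by 5.09% of 27305 promoters of the same length. In UGT2B7 it matched from 61 and 59 bases before the start. AGAACA matched 172 bases before the start of UGT2B15 and did not match the other 3 windows, and 12.4% of promoters held it. An exact match to the full androgen response element was found in 0 of the 4 windows. The windows of UGT2B10 and UGT2B11 were 90.2% identical, while UGT2B15 was 68.2% identical to UGT2B10 and 70% to UGT2B11.

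Total counts per library ran from 15.4 M to 44.8 M. The luminal prostate list (10 genes in the table, KLK3 and KRT8 among them) summed to between 3111 and 25380 CPM (read counts scaled to library size by TMM) in the cancer lines and 825.9 to 1508 CPM in RWPE, and the basal list (7 genes such as KRT5 and TP63) summed to 4165 to 18610 CPM in RWPE and at most 62.1 CPM in the cancer lines. KLK3, the androgen-induced gene of prostate-specific antigen, rose with androgen against stripped serum on ACP in LNCaP (log2 difference 1.01 ± 0.17 SE, edgeR quasi-likelihood test with Benjamini-Hochberg adjustment, adjusted p = 0.00722) and VCaP (4.77 ± 0.74, adjusted p = 0.00384), and was -0.46 ± 0.26 in MDAPCa2a (adjusted p = 0.968). FGG, a fibrinogen chain made in liver, moved with the plastic control groups: it was at 1.41 to 2.83 CPM in all 8 plastic control libraries and at no more than 0.0324 CPM in the other 26. The sum of 20 liver genes was 32.4 to 35.6 CPM in RWPE plastic control against 2.06 to 5.06 CPM in the other RWPE libraries, and 33.6 to 43.5 against 15.3 to 23.7 CPM in MDAPCa2a. In VCaP the sum did not follow plastic control, at 100.3 to 199 CPM there and 59.9 to 389.6 CPM in the other libraries. ALB alone reached 129.8 CPM in VCaP plastic control and 320 CPM in the other VCaP libraries. Over the 18 liver genes tested in VCaP, the median log2 difference from plastic control was -4.78 in plastic stripped and -4.62 in ACP control. In each of these comparisons 1 liver gene was called lower and 0 higher.

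The lines differed in which UGT2B genes they expressed. Per kb of exon, the group means of UGT2B17 and then UGT2B15 led in all 5 LNCaP groups. On ACP with androgen, UGT2B15 and UGT2B11 were close in LNCaP, at 38.5 and 36.9 CPM per kb of exon. Per kb of coding sequence UGT2B11 was ahead there, at 54.4 against 50.3. The 2 libraries of that group were in opposite order. Replicate 1 had 61.7 CPM of UGT2B15, below UGT2B11 (139.8), UGT2B28 (77.1) and UGT2B10 (64.1). Replicate 2 had 98.2 CPM of UGT2B15 and 32.9 of UGT2B11. The group mean of UGT2B15 led in all 5 VCaP groups, while the order of the other VCaP members changed with the group. In VCaP androgen replicate 1 UGT2B15 and UGT2B10 were close, at 12.6 and 11.9 CPM over 2077 and 1931 bases of exon. MDAPCa2a had low levels, led by UGT2B11 and UGT2B28 on plastic, and RWPE had few UGT2B reads of any kind. On ACP in stripped serum the leading MDAPCa2a member differed between the libraries. UGT2B11 had 78 and UGT2B17 22 reads in replicate 1, against 32 and 103 in replicate 2. Read per kilobase of exon, so that genes can be compared, LNCaP on ACP in stripped serum had 504 CPM per kb of UGT2B17 and 141 of UGT2B15, then 9.57 of UGT2B10, 6.54 of UGT2B11 and 0.592 to 0.606 of UGT2B28, UGT2B7 and UGT2B4. VCaP on ACP with androgen had 11.9 CPM per kb of UGT2B15, 6.69 of UGT2B10, 6.60 of UGT2B4, 4.55 of UGT2B7, 2.54 of UGT2B11, 2.19 of UGT2B17 and 0.601 of UGT2B28. MDAPCa2a on plastic in stripped serum had 5.36 CPM per kb of UGT2B11 and 3.13 of UGT2B28, ahead of 1.18 of UGT2B17, 0.778 of UGT2B15 and 0.362 of UGT2B4. In bulk libraries fewer expressing cells and less RNA per cell cannot be told apart.

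**Figure D1:**
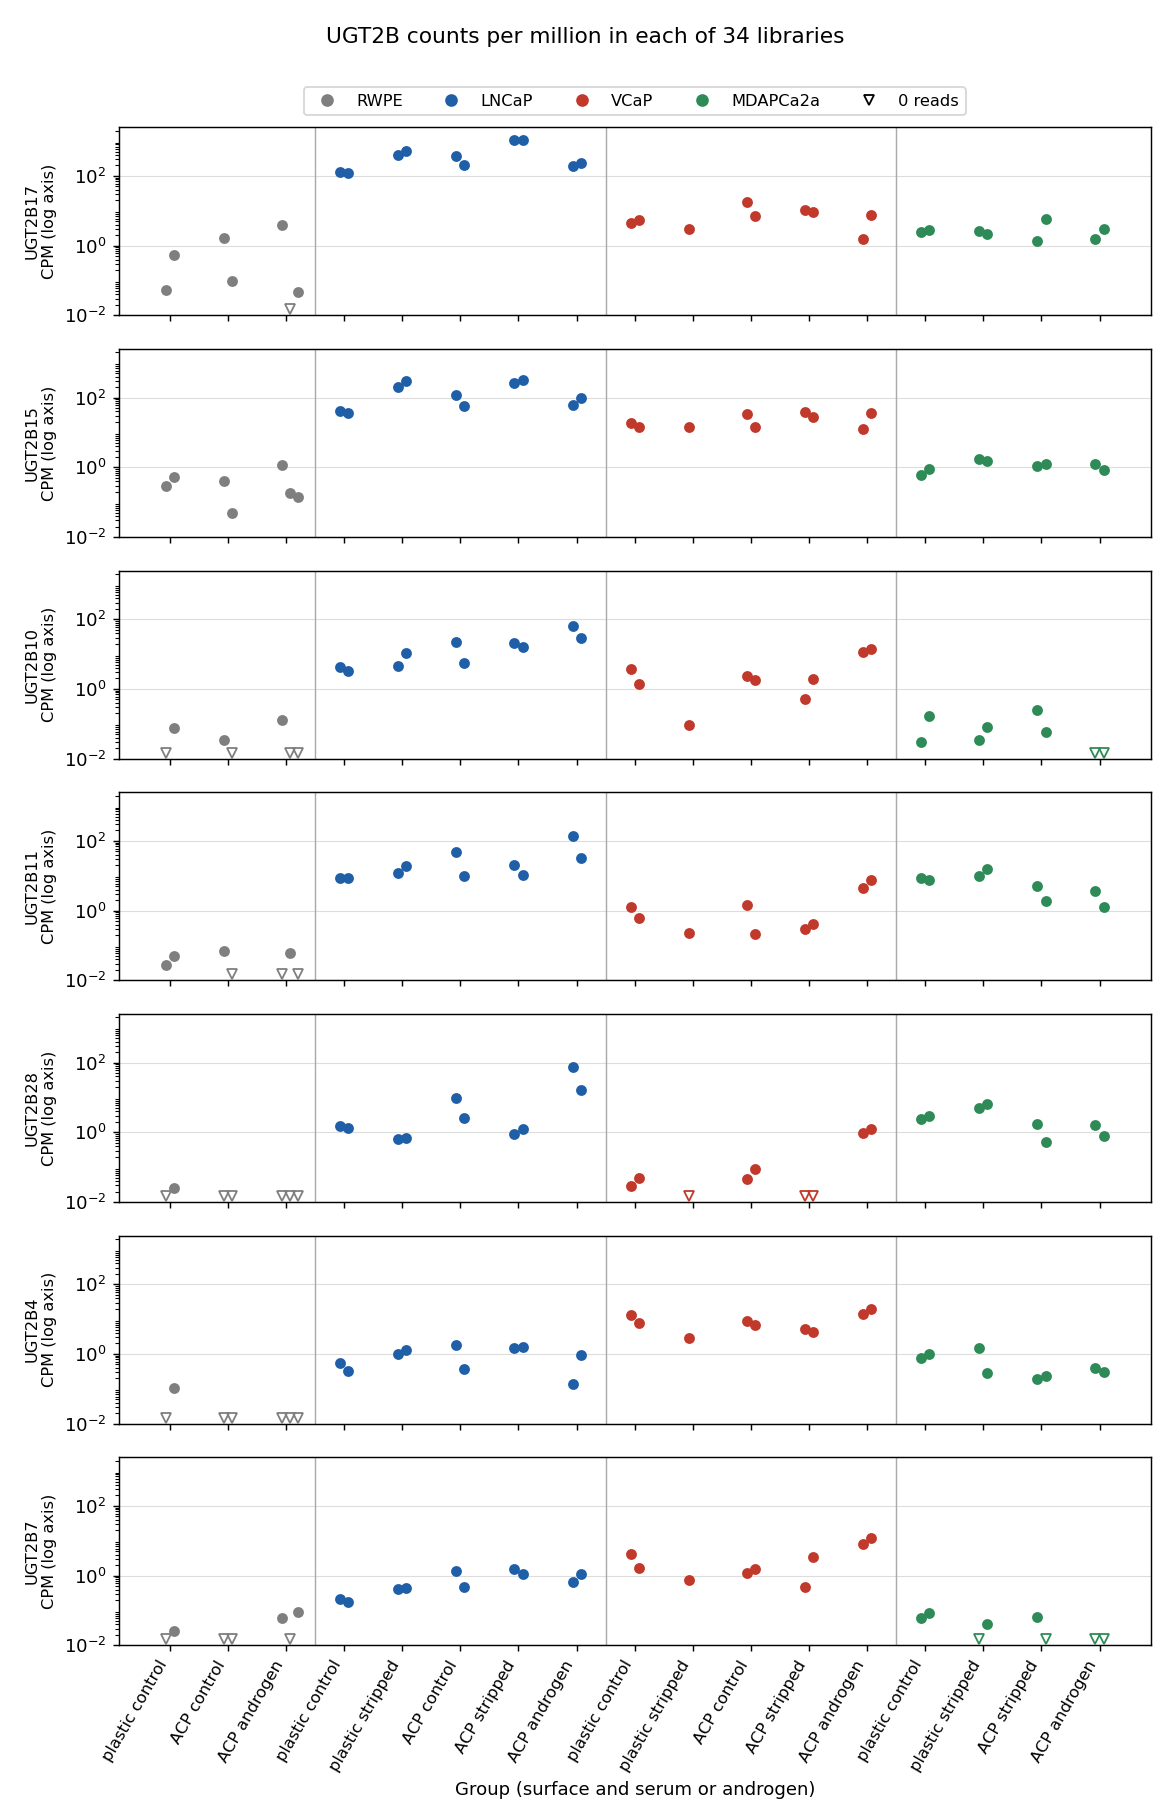
CPM (log axis) of each UGT2B gene in all 34 libraries; each filled point is 1 library, open triangles are libraries with 0 reads, and colours give the cell line. UGT2B17 and UGT2B15 stand highest in LNCaP, UGT2B4 and UGT2B7 in VCaP, and most RWPE libraries hold few or no reads.

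UGT2B17 had its 5 highest group means in the 5 LNCaP groups, in the order ACP stripped (1048 CPM ± 3.56 SD, n = 2), plastic stripped (459 ± 98.7, n = 2), ACP control (291 ± 125, n = 2), ACP androgen (218 ± 25.9, n = 2) and plastic control (125 ± 7.45, n = 2). The libraries of the third and the fourth overlapped. VCaP followed with means of 3.02 to 12.4 CPM, MDAPCa2a with 2.23 to 3.69 CPM, and RWPE with 0.296 to 1.36 CPM. UGT2B15 had the same leading pair of groups, LNCaP ACP stripped (293 CPM ± 51.3, n = 2) and LNCaP plastic stripped (253 ± 63.4, n = 2), whose libraries overlapped, ahead of ACP control (88.4 ± 46.2, n = 2), ACP androgen (80.0 ± 25.8, n = 2) and plastic control (38.99 ± 4.26, n = 2). In VCaP it lay at 14.4 to 33.1 CPM, the 3 ACP groups overlapping one another, in MDAPCa2a at 0.758 to 1.62 CPM and in RWPE at 0.231 to 0.482 CPM.

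The RWPE reads of these androgen-conjugating enzymes came mostly from single libraries. UGT2B17 had 64 reads in ACP androgen replicate 1 against 0 and 1 in the other two, and 49 reads in ACP control replicate 1 against 2 in replicate 2; UGT2B15 had 18 reads against 3 and 3, and 12 against 1. The RWPE androgen mean of UGT2B17 was 0.129% of the LNCaP ACP stripped mean, and the source of these reads was not tested.

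UGT2B10, UGT2B11 and UGT2B28 all had their highest group mean in LNCaP on ACP with androgen: 47.0 CPM ± 24.2, 86.4 ± 75.6 and 46.9 ± 42.7 (SD, n = 2 each). Replicate 1 of that group was above replicate 2 for all 3 genes. For UGT2B11 the next groups were LNCaP ACP control (28.4 CPM ± 26.3), LNCaP ACP stripped (15.3 ± 7.20) and plastic stripped (15.25 ± 4.69) and MDAPCa2a plastic stripped (12.55 ± 4.20), which overlapped one another, followed by LNCaP plastic control (8.74 ± 0.211). UGT2B28 reached 6.02 CPM ± 4.79 in LNCaP ACP control and 5.73 ± 1.18 in MDAPCa2a plastic stripped, which overlapped, and had 0 reads in all 3 VCaP stripped-serum libraries. UGT2B4 and UGT2B7 were highest in VCaP with androgen, at 16.5 CPM ± 4.02 and 10.3 ± 3.03 (n = 2), and the second highest group of each was VCaP plastic control, at 10.3 ± 3.54 and 2.87 ± 1.75. No LNCaP or MDAPCa2a group mean of either exceeded 1.52 CPM.

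Lines were tested against each other in stripped serum on ACP. UGT2B17 was higher in LNCaP than in VCaP by 6.68 ± 0.93 on the log2 scale (adjusted p = 1.4e-06) and than in MDAPCa2a by 8.13 ± 1.01 (adjusted p = 4.2e-07), while VCaP and MDAPCa2a were 1.45 ± 0.84 apart (adjusted p = 0.161). UGT2B15 differed between all 3 pairs, by 3.13 ± 0.50 for LNCaP over VCaP, 7.95 ± 0.66 for LNCaP over MDAPCa2a and 4.81 ± 0.61 for VCaP over MDAPCa2a. UGT2B28 had 64 reads in LNCaP and 36 in MDAPCa2a against 0 in VCaP, which makes it at least 16.3-fold and 16.5-fold higher there than in VCaP, taking 3 reads over the 2 VCaP libraries as the floor. Of the 7 members, LNCaP was higher than VCaP for 5 and lower for 1 (56.1% of all 17323 genes tested passed). LNCaP was higher than MDAPCa2a for 6 (45.5% passed, with 4280 genes higher). VCaP was higher than MDAPCa2a for 4 and lower for 2 (48.4% passed). Of these, the UGT2B4 call between LNCaP and VCaP was lost without any 1 of the 4 libraries, the UGT2B4 and UGT2B11 calls between LNCaP and MDAPCa2a and the UGT2B10 call between VCaP and MDAPCa2a were each lost without either of 2 libraries (MDAPCa2a replicates 1 and 2 for UGT2B4, LNCaP replicate 1 and MDAPCa2a replicate 2 for UGT2B11, and replicate 2 of either line for UGT2B10), and the UGT2B11 call between VCaP and MDAPCa2a without MDAPCa2a replicate 1.

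Against RWPE the lines were compared on ACP with androgen, where media also differ. All 7 members were higher in LNCaP, 6 in VCaP (all but UGT2B17, 1.87 ± 0.87, adjusted p = 0.0617) and 3 in MDAPCa2a (UGT2B4, UGT2B11 and UGT2B28). In these comparisons 66.9%, 67.4% and 64% of all genes were called in either direction. Genes called higher numbered 5570, 5684 and 5172 of 17323. UGT2B28 had 2748, 51 and 44 reads in the 3 lines and 0 in RWPE, which is at least 837-fold, 20.0-fold and 21.4-fold. The MDAPCa2a count became 5 without RWPE androgen replicate 1, the library with most of the RWPE reads of UGT2B17, and the LNCaP call of UGT2B4 was lost without LNCaP androgen replicate 2.

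In LNCaP, androgen lowered the 2 main androgen-conjugating enzymes and raised UGT2B28. On ACP in stripped serum UGT2B17 was at 1050 and 1045 CPM, and with androgen at 199.5 and 236 CPM. Both androgen libraries lay far below both stripped ones, a log2 difference of -2.27 ± 0.28 (adjusted p = 0.000928). UGT2B15 went from 257 and 330 CPM to 61.7 and 98.2 CPM, without overlap, a difference of -1.89 ± 0.35 (adjusted p = 0.0106). UGT2B28 went the other way, from 0.907 and 1.27 CPM to 77.1 and 16.7 CPM. The 2 androgen libraries differed from each other several times over, and both were above both stripped libraries; the difference was 5.43 ± 0.77 (adjusted p = 0.00226), and 3.92 to 6.16 when 1 library was left out.

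The close relatives of UGT2B28 had high androgen libraries without passing the test. UGT2B11 was at 20.4 and 10.2 CPM in stripped serum and 139.8 and 32.9 CPM with androgen (2.50 ± 0.73, adjusted p = 0.0602), and UGT2B10 at 20.9 and 16.1 against 64.1 and 29.8 CPM (1.34 ± 0.58, adjusted p = 0.184). The groups did not overlap for either gene. With 2 libraries a group this is a description only, and UGT2B4 in MDAPCa2a did not overlap either, at an adjusted p of 0.968. UGT2B4 (-1.53 ± 0.77, adjusted p = 0.254) and UGT2B7 (-0.60 ± 0.51, adjusted p = 0.517) had at most 49 reads in any library of the 2 groups. Of the 7 members 1 was called higher and 2 lower, where 7.73% of 14656 genes passed; the median log2 difference was -0.60 over the members and -0.01 over all genes. The UGT2B15 call was lost without ACP stripped replicate 2 or ACP androgen replicate 1, and the UGT2B17 call in a fit of all 34 libraries (-2.26, adjusted p = 0.0891).

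In VCaP the genes that rose with androgen were UGT2B4, UGT2B10, UGT2B11 and UGT2B28, and neither UGT2B15 nor UGT2B17 passed the test. UGT2B10 was at 0.529 and 1.96 CPM in stripped serum and 11.9 and 13.9 CPM with androgen, a difference of 3.36 ± 0.63 (adjusted p = 0.00832) that ranged from 2.77 (stripped replicate 1 left out) to 4.59 (stripped replicate 2 left out). UGT2B11 went from 0.289 and 0.408 CPM to 4.50 and 7.41 CPM (4.07 ± 0.83, adjusted p = 0.0109). UGT2B4 went from 5.05 and 4.40 CPM to 13.7 and 19.4 CPM (1.81 ± 0.35, adjusted p = 0.00886). All 3 were higher in both androgen libraries than in either stripped one, again a description only. UGT2B28 had 0 reads in both stripped libraries and 23 and 28 with androgen, at least 16.6-fold higher (adjusted p = 0.00675). Without overlap as well, UGT2B7 was at 0.481 and 3.51 CPM against 8.14 and 12.4 CPM and did not pass (2.35 ± 0.74, adjusted p = 0.0534).

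UGT2B17 in VCaP was at 10.6 and 9.54 CPM in stripped serum and 1.58 and 7.49 CPM with androgen (-1.15 ± 0.62, adjusted p = 0.215), without overlap. UGT2B15 was at 37.7 and 28.5 CPM against 12.6 and 36.8 CPM (-0.42 ± 0.50, adjusted p = 0.581), with overlapping groups. Replicate 1 with androgen was the low library for both, and was also the library with more KLK3 (3410 against 835.6 CPM). With 4 of 7 members called higher, 17.5% of 15614 genes passed, 1353 of them higher. The members' median difference was 2.35 against -0.03 over all genes. The UGT2B11 call was lost without ACP stripped replicate 1 or ACP androgen replicate 2, and the UGT2B4 call without ACP androgen replicate 2. The 8 markers of lymphoid and myeloid cells summed to 9.74 to 15.6 CPM in the stripped and 83.9 to 159.8 CPM in the androgen libraries. Nearly all of that was LYZ, at 9.27 ± 4.17 and 116.7 ± 51.4 CPM (SD, n = 2); PTPRC was at no more than 0.0481 CPM in these libraries, and CD3E was at 0 in both groups. The 20 liver genes summed to 331.1 to 389.6 CPM in the stripped and 59.9 to 138.7 CPM in the androgen libraries, with 1 called higher and 3 lower of 18 tested and FGG at 0 in all 4. The 8 intestine genes summed to 120.6 to 160.2 and 32.97 to 34.3 CPM. Both sums were lower with androgen, where UGT2B4 and UGT2B10 were higher, and their part in the result was not tested.

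**Figure D2:**
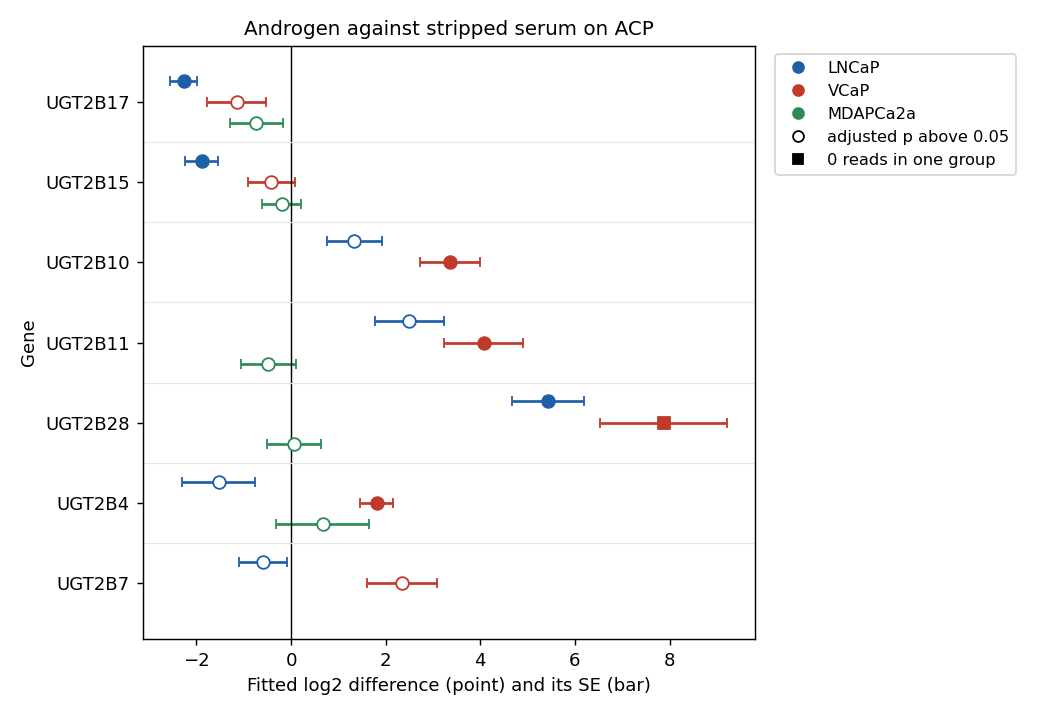
Fitted log2 difference (point) with its SE (bar) of each UGT2B gene between androgen and stripped serum on ACP in 3 lines; filled symbols passed the adjusted threshold, and the square is UGT2B28 in VCaP, whose fitted value is no estimate of size because the stripped libraries had 0 reads. UGT2B17 and UGT2B15 lie left of 0 in LNCaP at -2.27 and -1.89, while UGT2B10, UGT2B11 and UGT2B28 lie right of it in LNCaP and VCaP.

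MDAPCa2a and RWPE gave no call. In MDAPCa2a 5 members had enough reads to be tested and none passed, with log2 differences from -0.74 ± 0.56 (UGT2B17) to 0.67 ± 0.98 (UGT2B4); edgeR gave 0 members at an unadjusted p below 0.05, DESeq2 called 0, and 0% of all genes passed. UGT2B28, which rose in the other 2 cancer lines, was at 1.71 and 0.524 CPM in stripped serum and 1.60 and 0.803 CPM with androgen, and UGT2B11 at 4.94 and 1.86 against 3.77 and 1.31 CPM. Replicate 1 was above replicate 2 in both groups, and the groups overlapped. UGT2B10 had 5 reads in stripped serum and 0 with androgen, and UGT2B7 1 and 0. In RWPE UGT2B15 and UGT2B17 could be tested against ACP control and 0 of 2 were called by edgeR, at an unadjusted p below 0.05 or by DESeq2, where 19.1% of all genes passed; the other 5 members had at most 3 reads in any of the 2 groups.

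The androgen effects of 2 lines were tested against each other in the fit of all 34 libraries, each pair of lines using 8 libraries. Compared with LNCaP, the effect in VCaP was more positive for UGT2B4 (3.31 ± 0.94, adjusted p = 0.0263) and UGT2B7 (2.93 ± 0.92, adjusted p = 0.0425), 2 of 7 members, where 10.9% of genes passed. Compared with LNCaP, the effect in MDAPCa2a was more negative for UGT2B28 (-5.32 ± 0.96, adjusted p = 0.00548), 1 of 7 members against 1.12% of genes. VCaP exceeded MDAPCa2a for UGT2B11 (4.49 ± 1.18, adjusted p = 0.0196) and UGT2B28, whose fitted difference of 7.83 rests on 0 reads in VCaP stripped serum, 2 of 7 members against 7.86% of genes. The differences between VCaP and LNCaP for UGT2B17 (1.10 ± 1.08, adjusted p = 0.58) and UGT2B15 (1.44 ± 0.65, adjusted p = 0.166) did not pass. Each of the 5 calls was lost without at least 3 of the 8 libraries in turn: 3 for UGT2B28 between MDAPCa2a and LNCaP, 4 for UGT2B11, 5 for UGT2B28 between VCaP and MDAPCa2a, and 6 each for UGT2B4 and UGT2B7.

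Androgen on ACP was also compared with control medium on ACP, in which the serum holds its own steroids. In LNCaP 1 of 7 members passed, UGT2B28, at 9.41 and 2.64 CPM in control medium and 77.1 and 16.7 CPM with androgen (2.93 ± 0.66, adjusted p = 0.0137; 15.1% of genes passed). Leaving out ACP control replicate 2 ended the call (2.28, adjusted p = 0.0527), as did leaving out ACP androgen replicate 1 (1.42, adjusted p = 0.159), and the difference was 4.15 without ACP control replicate 1 and 3.65 without ACP androgen replicate 2. UGT2B17 (-0.45 ± 0.27, adjusted p = 0.273) and UGT2B15 (-0.18 ± 0.34, adjusted p = 0.762) had overlapping groups. In VCaP 2 of 7 passed where 5.99% of genes did: UGT2B10, from 2.38 and 1.77 to 11.9 and 13.9 CPM (2.65 ± 0.61, adjusted p = 0.035), and UGT2B28, from 3 reads to 51, a ratio of 16.5 with a 95% exact counting interval of 5.35 to 82.8. Both calls were lost without each of the 4 libraries, in fits where far fewer genes of any kind passed. This comparison shares its androgen libraries with the one against stripped serum.

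Stripping the serum raised UGT2B15 and UGT2B17 in LNCaP on both surfaces. On plastic UGT2B17 went from 130.7 and 120.2 CPM to 389 and 529 CPM (1.94 ± 0.27, adjusted p = 0.00168) and UGT2B15 from 42.0 and 35.98 CPM to 208 and 298 CPM (2.76 ± 0.37, adjusted p = 0.00125). On ACP UGT2B17 went from 379.5 and 202.5 CPM to 1050 and 1045 CPM (1.82 ± 0.27, adjusted p = 0.00362) and UGT2B15 from 121 and 55.7 CPM to 257 and 330 CPM (1.71 ± 0.35, adjusted p = 0.0184). In all 4 cases both stripped libraries were above both control libraries, which with 2 libraries a group is a description only. On plastic the members that were not called did not overlap either. These were the 2 members called of 7, where 9.45% of genes passed on plastic and 5.37% on ACP. The UGT2B15 call on ACP did not survive leaving out either stripped library or the second ACP control library, its difference ranging from 1.23 to 2.40 over the left-out libraries, and the UGT2B17 calls were lost in a fit of all 34 libraries (adjusted p = 0.142 on plastic, 0.196 on ACP).

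The 20 liver genes summed to 52.2 to 60.7 CPM in LNCaP plastic control and 19.6 to 60.3 CPM in the other LNCaP libraries. These sums overlapped, but of 17 liver genes tested 11 were lower in plastic stripped than in plastic control and 0 higher. Their median log2 difference was -3.58, where 9.45% of all genes passed. In ACP control 12 of 17 were lower than in plastic control and 0 higher (median -3.29, 12.6% of all genes passed). The part of liver transcripts in the plastic values was not tested.

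The other LNCaP members did not pass when serum was stripped. UGT2B28 was at 1.54 and 1.33 CPM in plastic control against 0.643 and 0.708 CPM in plastic stripped (-1.05 ± 0.83, adjusted p = 0.48), and at 9.41 and 2.64 against 0.907 and 1.27 CPM on ACP (-2.50 ± 0.74, adjusted p = 0.0783). No library overlapped in either comparison, which with 2 libraries a group is a description only. KLK3 fell by 4.41 ± 0.20 on plastic and by 0.70 ± 0.17 on ACP, a difference between surfaces of 3.70 ± 0.25 (adjusted p = 0.000171). For UGT2B17 the same difference was -0.11 ± 0.37 (adjusted p = 0.968) and for UGT2B15 -1.06 ± 0.49 (adjusted p = 0.579). Of the 7 members 0 were called for this interaction by edgeR, 0 at an unadjusted p below 0.05 and 0 by DESeq2, while 0.307% of genes passed.

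VCaP and MDAPCa2a gave no UGT2B call for stripped serum. In VCaP on ACP 0 of 7 passed in edgeR, at an unadjusted p below 0.05 or in DESeq2 (0.82% of genes passed in edgeR), with UGT2B15 at 34.2 and 14.8 CPM in control and 37.7 and 28.5 CPM in stripped serum. On plastic the stripped group was 1 library, assumed to vary like the other groups, so counts of members passing carry little weight there. That library was low for UGT2B10 (2 reads against 127 and 58 in plastic control) and UGT2B4 (2.93 CPM against 12.8 and 7.83 CPM; -1.75 ± 0.46, adjusted p = 0.0829). In MDAPCa2a on plastic edgeR called 0 of 5 tested, 2 at an unadjusted p below 0.05, and DESeq2 0 (1.58% of genes passed in edgeR), UGT2B15 being at 0.601 and 0.914 CPM against 1.73 and 1.50 CPM (1.12 ± 0.38, adjusted p = 0.188). The plastic control libraries of these comparisons carry the FGG reads described above, and their part in the values of the liver enzymes UGT2B4, UGT2B7 and UGT2B10 was not tested.

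**Figure D3:**
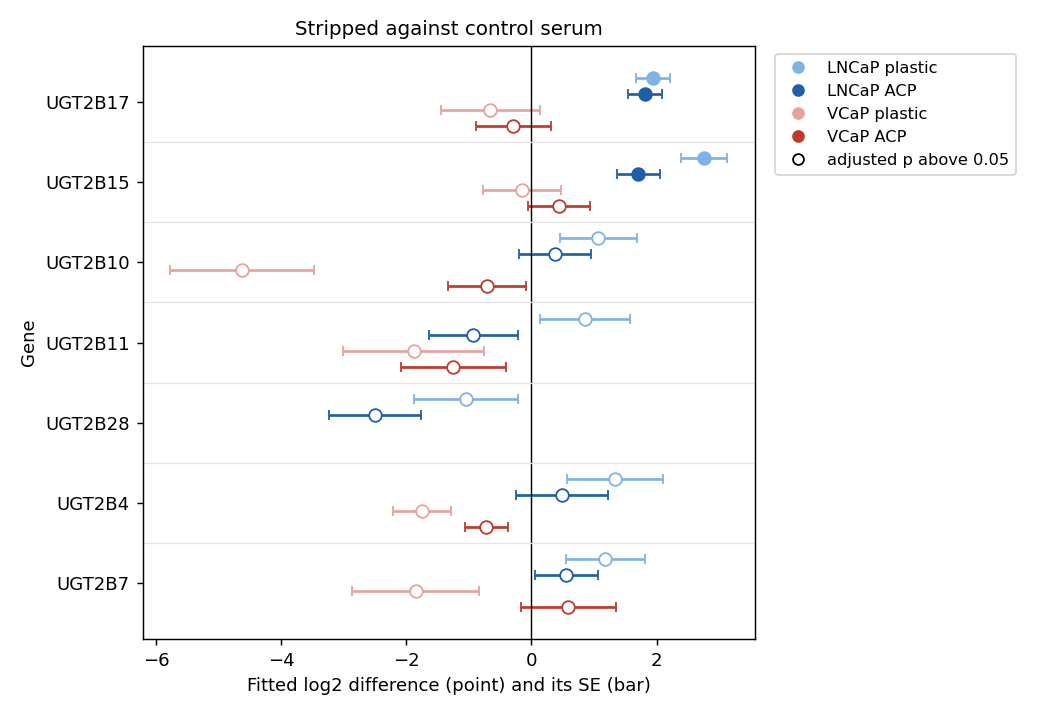
Fitted log2 difference (point) with its SE (bar) between stripped and control serum for the UGT2B genes in LNCaP and VCaP on both surfaces; filled points passed the adjusted threshold, and UGT2B28 in VCaP is left out because both groups had at most 3 reads. The 4 filled points are UGT2B17 and UGT2B15 in LNCaP, between 1.71 and 2.76.

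Few members passed the test for the surface, which does not show that the others were unchanged. In stripped serum LNCaP had more UGT2B17 on ACP than on plastic, 1050 and 1045 against 389 and 529 CPM (1.21 ± 0.27, adjusted p = 0.0267), the 1 member of 7 called where 6.12% of genes passed. UGT2B15 was at 257 and 330 against 208 and 298 CPM (0.23 ± 0.34, adjusted p = 0.71), with overlapping groups. The UGT2B17 call was lost without plastic stripped replicate 1, without either ACP stripped library, in a fit of all 34 libraries (adjusted p = 0.421) and in a fit without the plastic control libraries (adjusted p = 0.0551). VCaP had 0 of 7 members called by edgeR, 1 at an unadjusted p below 0.05 and 0 by DESeq2 (0% of genes passed in edgeR), with 0 reads of UGT2B28 on both surfaces. MDAPCa2a had 0 of 5 called by edgeR (0.00734% of genes passed) and 2 by DESeq2 (1.53% of genes passed). In edgeR 3 had an unadjusted p below 0.05, and the share of all genes below it was not computed. The 2 members that led on plastic were lower on ACP in every library, UGT2B28 at 1.71 and 0.524 against 4.89 and 6.56 CPM (-2.26 ± 0.52, adjusted p = 0.193) and UGT2B11 at 4.94 and 1.86 against 9.58 and 15.5 CPM (-1.78 ± 0.55, adjusted p = 0.255), while UGT2B17 was at 1.39 and 5.99 against 2.66 and 2.23 CPM, with overlap (0.67 ± 0.55, adjusted p = 0.544); the protein coat on plastic differs with the surface and cannot be told apart from it.

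In control medium 3 of 7 LNCaP members were called higher on ACP than on plastic, where 12.6% of genes passed, 988 of 14656 being higher. They were UGT2B17 (1.32 ± 0.27, adjusted p = 0.0151), UGT2B15 (1.29 ± 0.35, adjusted p = 0.0369) and UGT2B7 (2.30 ± 0.59, adjusted p = 0.0295). The differences of all 7 members were positive, 6 of them at an unadjusted p below 0.05 in edgeR. UGT2B17 was at 379.5 and 202.5 CPM on ACP and 130.7 and 120.2 CPM on plastic, and UGT2B7 at 37 and 13 reads against 10 and 8. The plastic control libraries are those with FGG reads, and the part of liver transcripts here was not tested. ACP control replicate 1 was above replicate 2 for all 7 members. Over the left-out libraries the differences ran from 0.75 to 1.70 for UGT2B17, 0.57 to 1.74 for UGT2B15 and 1.34 to 2.85 for UGT2B7. All 3 calls were lost without ACP control replicate 1, without plastic control replicate 1 or 2, or in a fit of all 34 libraries. Far fewer genes of any kind passed in those fits (3.73% in the fit of all 34), so the losses are not particular to the members. In VCaP 0 of 7 were called by edgeR (0.0448% of genes passed), 1 at an unadjusted p below 0.05 and 0 by DESeq2, and in RWPE 0 of 2 tested by edgeR (4.16% of genes passed), 0 at an unadjusted p below 0.05 and 0 by DESeq2.

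The makeup of the family's reads differed between stripped serum and androgen in LNCaP and VCaP. In LNCaP on ACP the 7 genes summed to 1379 CPM ± 37.2 in stripped serum and 479 ± 89.9 with androgen (SD, n = 2). UGT2B17 gave 76.0% of these reads in stripped serum and 46.8% with androgen, UGT2B15 21.2% and 17.5%, UGT2B11 1.12% and 16.8%, UGT2B10 1.34% and 9.49%, and UGT2B28 0.0785% and 9.11%. The androgen libraries differed widely. Replicates 1 and 2 had 36.7% and 56.8% of UGT2B17, 11.4% and 23.6% of UGT2B15, and 25.8% and 7.91% of UGT2B11. They had 11.8% and 7.17% of UGT2B10, and 14.2% and 4.01% of UGT2B28. Of 543 CPM in replicate 1, UGT2B15 and UGT2B17 gave 261.2. The sum of UGT2B15 and UGT2B17, which does not depend on how reads are split between the pair, was 1341 ± 47.8 CPM against 298 ± 51.8 CPM, and the sum of UGT2B10, UGT2B11 and UGT2B28 34.9 ± 10.3 against 180.2 ± 142.5 CPM. In VCaP the whole family stood at 51.5 ± 4.52 CPM in stripped serum and 76.0 ± 32.0 CPM with androgen, while UGT2B15 went from 63.9% to 30.4% and UGT2B17 from 19.6% to 5.28% of its reads, and the sum of UGT2B10, UGT2B11 and UGT2B28 from 1.59 ± 1.09 to 20.0 ± 3.66 CPM. In MDAPCa2a UGT2B11 made up 52.7% and 53.1% of the reads on plastic in control and stripped serum, UGT2B28 17.9% and 24.5%, and UGT2B17 17.5% and 10.8%. On ACP in stripped serum and with androgen UGT2B11 made up 35.0% and 32.6%, UGT2B17 37.4% and 32.6%, and UGT2B28 11.5% and 15.8%. The libraries of these ACP groups differed widely. In stripped serum UGT2B17 gave 14.5% in replicate 1 and 60.2% in replicate 2, and UGT2B11 51.3% and 18.7%. With androgen UGT2B17 gave 18% and 47.2%, and UGT2B11 44% and 21.1%. These shares are means over libraries and were not tested.

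**Figure D4:**
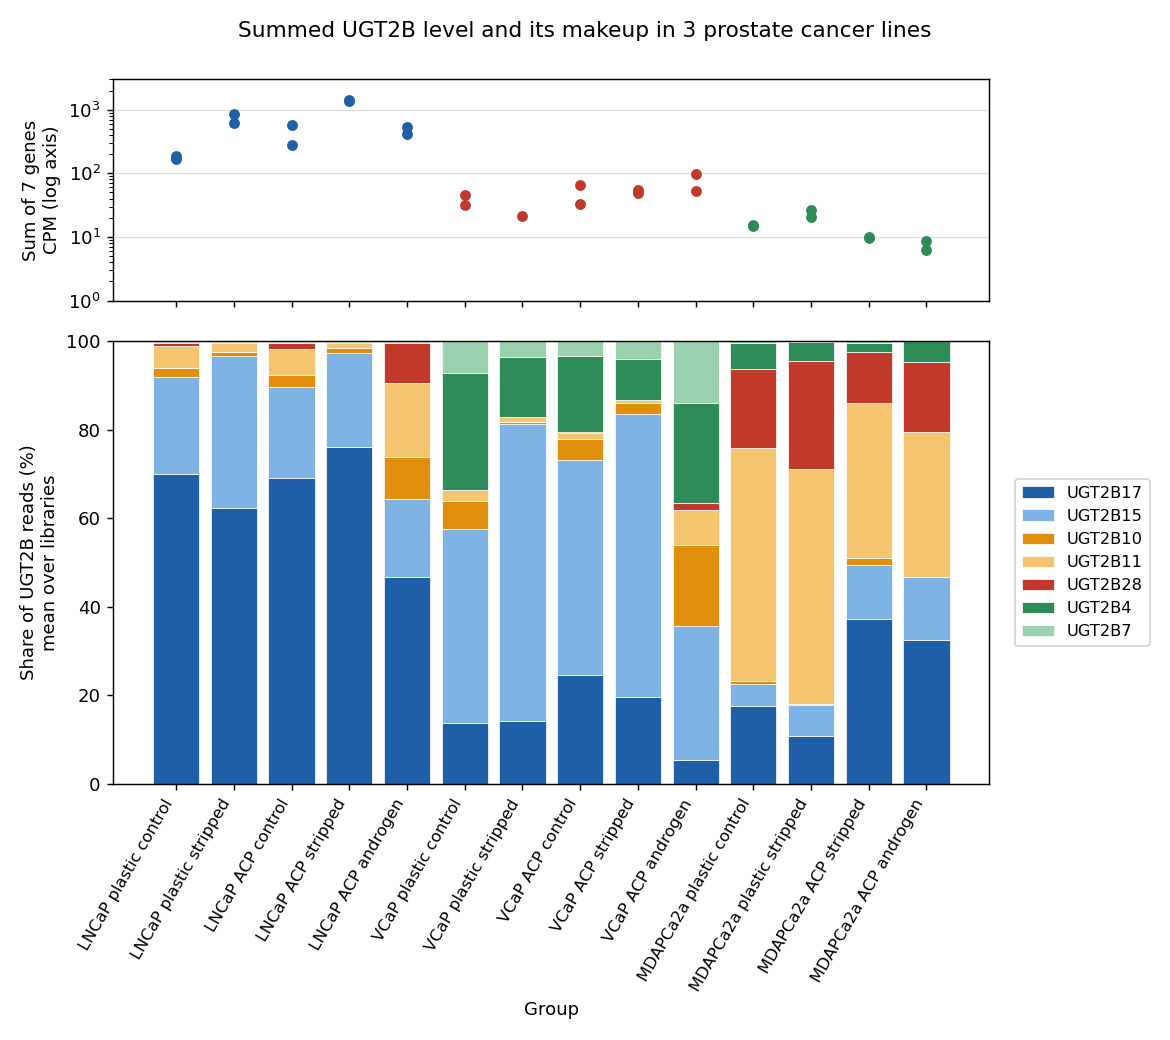
Upper panel, summed CPM (log axis) of the 7 UGT2B genes, 1 point per library; lower panel, mean share of each gene in the UGT2B reads (percent) in the 14 groups of the cancer lines. UGT2B17 and UGT2B15 fill most of each LNCaP bar, and the UGT2B10, UGT2B11 and UGT2B28 segments widen with androgen in LNCaP and VCaP.

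Over the 17 group means of log2 CPM, which share lines, media and scaling, Pearson's r was 0.91 between UGT2B15 and UGT2B17, 0.93 between UGT2B11 and UGT2B28, and 0.84 between UGT2B4 and UGT2B7. It was 0.55 between UGT2B17 and UGT2B28 and 0.33 between UGT2B15 and UGT2B28. UGT2B10 went with UGT2B15 (0.90) more than with UGT2B28 (0.46), its nearer relative in sequence. Among 15542 genes the 3 whose group means were most like UGT2B17 were DGCR6, DIO1 and CAPN9 (r = 0.961 to 0.975), and like UGT2B15, BCHE, FOXN3-AS1 and MLLT10P1 (0.963 to 0.964). The 3 most like UGT2B28 were ELOVL5, ACSM1 and ALPK2 (0.941 to 0.955), like UGT2B11 CCDC47, MRFAP1 and SMPD1 (0.956 to 0.980), and like UGT2B7 PMVK, TMBIM6 and CLEC3B (0.940 to 0.956). Genes close to UGT2B10 in this measure included SRXN1 and MTUS1 (0.950 and 0.931), and genes close to UGT2B4 included ATRIP and RAB1B (0.962 and 0.960). With 17 means dominated by 4 lines, such values describe shared line patterns.

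A list of 21 other genes of glucuronidation holds enzymes and carriers that make and supply UDP-glucuronic acid (UGDH, UGP2, SLC35D1) and SLC35B1, a related carrier. It also holds GUSB, which splits conjugates, and the remaining UGT genes. With androgen against stripped serum on ACP, 0 of 6 tested passed in LNCaP (median log2 difference 0.05), 1 rose and 1 fell of 12 in VCaP (0.25) and 0 of 8 passed in MDAPCa2a (-0.07), beside 7.73%, 17.5% and 0% of all genes. Counts this near the share over all genes show nothing particular to the list. In VCaP SLC35B1 rose from 46.7 CPM ± 0.405 to 78.6 ± 7.82 (0.75 ± 0.18, adjusted p = 0.0203) and UGT8, which makes galactosylceramide, fell from 33.8 ± 11.1 to 15.5 ± 3.58 CPM (-1.13 ± 0.26, adjusted p = 0.0187). UGDH, which oxidises UDP-glucose to UDP-glucuronic acid, was at 53.2 and 69.4 CPM in LNCaP (0.38 ± 0.22, adjusted p = 0.336) and 155.7 and 197.5 CPM in VCaP (0.34 ± 0.23, adjusted p = 0.324). SLC35D1, a carrier of UDP-glucuronic acid, was at no more than 0.0912 CPM in these LNCaP groups on ACP and at 30.5 to 31.4 CPM in VCaP. The UGT1A genes share exons, so their counts cannot be assigned to single genes.

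Other enzymes of androgen metabolism, 29 genes, gave 3 calls of 18 tested in LNCaP, where 7.73% of all genes passed, and 3 of 19 in VCaP, where 17.5% did. In LNCaP AKR1C3, which reduces androstenedione to testosterone, fell from 7.18 CPM ± 0.0327 to 1.83 ± 0.198 (-1.98 ± 0.33, adjusted p = 0.00568), SULT2B1, a steroid sulfotransferase, fell from 10.5 ± 2.38 to 4.28 ± 0.736 CPM (-1.29 ± 0.25, adjusted p = 0.012), and AKR1D1, a steroid reductase, was called higher at 0.1999 CPM ± 0.0386 against 0 reads (adjusted p = 0.0498). In VCaP HSD3B1, which makes androstenedione, rose from 0.161 ± 0.113 to 2.86 ± 0.951 CPM (4.14 ± 0.90, adjusted p = 0.014), RDH16, a steroid and retinol dehydrogenase, fell by 1.92 ± 0.42 (adjusted p = 0.014), and AKR1D1 was called higher at 0.779 CPM ± 0.254 against 0.0204 ± 0.0288 (adjusted p = 0.0414). In stripped against control serum on ACP, which shares its stripped libraries with the androgen comparison, AKR1C3 in LNCaP was at 7.18 ± 0.0327 against 2.49 ± 1.14 CPM (1.50 ± 0.32, adjusted p = 0.0217; 5.37% of all genes passed). Besides AKR1C3, the calls among 18 tested in that comparison were STS, higher by 0.74 ± 0.15, and CYP11A1, which cuts the cholesterol side chain, and AKR1D1, lower. On plastic, stripping raised HSD17B1 (0.82 ± 0.17) and lowered AKR1D1, CYP3A4 and CYP11A1 among 18 tested in LNCaP (9.45% of all genes passed), and in MDAPCa2a raised CYP11A1 (6.82 ± 0.50) and SULT2B1 and lowered HSD17B2 (-1.74 ± 0.21) among 16 (1.58%); in VCaP 0 of 19 passed on either surface (0.82% on ACP and 0.89% on plastic). AKR1D1 and CYP3A4 are also liver genes, and their part in the plastic control libraries was not tested. In MDAPCa2a 0 of 16 passed with androgen.

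FOXA1, a pioneer factor of luminal prostate cells, was at 452 CPM ± 9.46 in LNCaP on ACP in stripped serum and 474 ± 21.9 with androgen (SD, n = 2; 0.06 ± 0.13, adjusted p = 0.814), and at 794 ± 14.95 and 657 ± 175 CPM in VCaP (-0.27 ± 0.25, adjusted p = 0.464). UGDH, SLC35D1, SULT2B1, HSD3B1, STS, CYP3A4 and FOXA1 were chosen for naming after their values were seen.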

How the data were processed

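Poly(A) RNA libraries of 4 prostate cell lines were analysed as a table of raw read counts per gene that the authors deposited, 26336 genes by 34 libraries. STAR, HTSeq and hg19 are named in the submitters' processing notes; how the counting treated strand and reads matching several genes is not given in the sources used here. Groups were taken from the labels. The members and gene lists were chosen with earlier results of these data known: the 7 listed symbols are all named, and other genes are those of the lists or the 3 nearest in pattern.

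Counts were tested with edgeR 4.0.16 in R 4.3.3 (TMM library scaling, genes kept by filterByExpr at a minimum count of 10, quasi-likelihood F test, Benjamini-Hochberg adjustment over all genes tested, threshold 0.05). Comparisons within a line used a fit of that line's libraries, and comparisons between lines a fit of all 34. The SE is the log2 difference divided by the root of F. Overlap of libraries between groups was described without a test, and the share of all genes without overlap was not computed. Nor was the share of all genes at an unadjusted p below 0.05. CPM used TMM library sizes over all 34 libraries, and floors are 3 reads per group; intervals and floors cover counting error only. Totals of 15.4 M to 44.8 M reads make 1 read worth well under 0.1 CPM. The fitting was tested on simulated data. Alternatives were RLE size factors, no count filter, DESeq2 1.42.0, a replicate block, a fit of all 34 libraries, a fit without the plastic control libraries, and leaving out each library. Gene structure came from GENCODE v29 (GRCh38) and promoters from RefSeq (GRCh38.p14); sequences were handled with Biopython 1.88 and figures drawn with matplotlib 3.10.9. Some genes of the lists are not reported here.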

Additional observations from a re-analysis of the deposited data

Results flagged for a closer look

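Members whose androgen effect (ACP androgen against ACP stripped) differed between 2 lines, by edgeR's test of the difference with Benjamini-Hochberg adjustment, are listed here. UGT2B4 differed between VCaP and LNCaP by 3.31 ± 0.94 on the log2 scale (adjusted p = 0.0263), its levels being higher with androgen in both VCaP libraries and lower in both LNCaP libraries. The call was lost without LNCaP stripped replicate 1 or 2, LNCaP androgen replicate 1, VCaP stripped replicate 1 or 2, or VCaP androgen replicate 2 (2.53 to 5.22 over the left-out libraries). UGT2B7 differed between the same lines by 2.93 ± 0.92 (adjusted p = 0.0425), and the call was lost without any LNCaP library of the 2 groups, VCaP stripped replicate 1 or VCaP androgen replicate 2 (2.13 to 4.98). It was also lost with DESeq2 (2.92, adjusted p = 0.0521), with the replicate block (3.00, adjusted p = 0.0664) and in a fit without the plastic control libraries (2.94, adjusted p = 0.0585).

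UGT2B28 differed between MDAPCa2a and LNCaP by -5.32 ± 0.96 (adjusted p = 0.00548), lost without LNCaP stripped replicate 1, MDAPCa2a stripped replicate 1 or MDAPCa2a androgen replicate 2 (-6.04 to -3.84). UGT2B11 differed between VCaP and MDAPCa2a by 4.49 ± 1.18 (adjusted p = 0.0196), lost without replicate 1 of either stripped group or replicate 2 of either androgen group (3.62 to 5.43). UGT2B28 differed between VCaP and MDAPCa2a by a fitted 7.83 ± 2.04 (adjusted p = 0.0221), which is no estimate of size because VCaP stripped serum had 0 reads; the call was lost without either VCaP stripped library, VCaP androgen replicate 2, MDAPCa2a stripped replicate 1 or MDAPCa2a androgen replicate 2.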

How the results depend on the processing

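Of 57 member calls, 31 held under every alternative run, and none changed direction. Most of those that held were comparisons of 1 line with another. Within a line, UGT2B28 held for androgen against stripped serum in LNCaP and VCaP, and UGT2B10 in VCaP. UGT2B15 held for stripped against control serum on plastic in LNCaP, and no other call within a line held. None of the differences in androgen effect between lines held. RLE size factors lost none of them. Counts of members called that moved by over 1.5 times follow, each with the share of all genes passing under the same setting. Comparisons with the single VCaP plastic stripped library are left out, and the cause was not tested. With no count filter, androgen against stripped in LNCaP gave 6 (9.94%). Androgen against control gave 3 in LNCaP (14.6%) and 5 in VCaP (8.74%). Stripped against control in LNCaP gave 4 on ACP (8.49%) and 4 on plastic (10.8%). In stripped serum ACP against plastic gave 3 in LNCaP (8.96%) and 2 in MDAPCa2a (1.65%). In control medium it gave 6 in LNCaP (14.4%). The interaction of surface and serum gave 2 (1.66%), and the androgen effect of MDAPCa2a against LNCaP gave 2 (2.24%). With DESeq2 they were 4 for androgen against control in VCaP (11.1%) and 2 for the surface in MDAPCa2a stripped serum (1.53%). The androgen effect of VCaP against LNCaP gave 1 with DESeq2 (16.2%). In a fit of all 34 libraries they were 4 for androgen against control in VCaP (13.1%) and 1 for stripped against control on plastic in LNCaP (6.54%). For the surface in LNCaP that fit gave 0 in stripped serum (1.97%) and 0 in control medium (3.73%). Without the plastic control libraries they were 4 for androgen against control in VCaP (7.41%) and 0 for the surface in LNCaP stripped serum (2.59%). The androgen effect of VCaP against LNCaP then gave 1 (8.85%).

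Leaving out 1 library gave 2 to 4 calls for androgen against stripped in LNCaP and 3 to 5 in VCaP, 0 to 3 for androgen against control in LNCaP and 0 in VCaP, 1 to 2 for stripped against control in LNCaP on ACP, and 0 to 1 in VCaP on plastic. For the surface it gave 0 to 1 in LNCaP and 0 to 1 in MDAPCa2a in stripped serum, and 0 to 6 in LNCaP control medium. Between lines it gave 5 for LNCaP against VCaP, 4 to 6 for LNCaP against MDAPCa2a, 5 to 6 for VCaP against MDAPCa2a, and 6 to 7, 6 to 7 and 3 to 5 for LNCaP, VCaP and MDAPCa2a against RWPE. For the androgen effects it gave 0 to 3 for VCaP against LNCaP, 0 to 2 for MDAPCa2a against LNCaP and 0 to 2 for VCaP against MDAPCa2a. An arm left with 1 library was assumed to vary like the other groups. The share of all genes passing also changed in many of these fits, so a moved count is not a result about the members alone.

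Whether the replicate numbers pair the libraries was not settled. Over 25 pairs of groups the correlation of same-numbered deviations ran from -0.47 to 0.55, above 0.1 in 8. Between ACP stripped and ACP androgen it was 0.55 in MDAPCa2a, 0.23 in LNCaP and -0.15 in VCaP. With the replicate block 1 was called for androgen against control in VCaP (5.15% of genes passed). The androgen effect of VCaP against LNCaP also gave 1 with the block (11.5%). Under it 5 member calls missed the threshold: UGT2B28 for androgen against control in VCaP (4.00, adjusted p = 0.0533), UGT2B7 for the androgen effect of VCaP against LNCaP (3.00, adjusted p = 0.0664), UGT2B4 between LNCaP and VCaP (-1.51, adjusted p = 0.0921) and between MDAPCa2a and RWPE (5.97, adjusted p = 0.115), and UGT2B10 between VCaP and MDAPCa2a (2.76, adjusted p = 0.102). Depth limits the members with few reads: UGT2B7 and UGT2B10 in MDAPCa2a and all but UGT2B15 and UGT2B17 in RWPE were not tested within the line.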
